A study of Mus musculus with 6 samples.

Results

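Genes of the non-collagen extracellular matrix, 51 in all, were followed in RNA from mouse mesenteric fat: secreted glycoproteins, elastic fibre proteins, proteoglycans, laminins and nidogens, and hyaluronan synthases. They were chosen by name for what they encode, and all 51 were found among the 22134 gene symbols of the deposited table. The study sequenced total RNA, after removal of ribosomal RNA, from adipose tissue of wild-type (WT) mice in 6 libraries. In 3 of them the tissue was creeping fat, mesenteric fat wrapping onto damaged bowel, from mice whose colon had been injured by cautery several times, and in 3 it was mesenteric fat of uninjured control mice. The labels give no strain, age or sex. Nor do they tie each library to its own animal, and the p-values therefore reflect the spread among these libraries alone, which may be technical.

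Fibroblasts and related stromal cells secrete a matrix in which collagen fibres are joined by adhesive glycoproteins such as fibronectin, by elastic fibres built of elastin on a fibrillin scaffold, and by proteoglycans, proteins that carry sulphated sugar chains. Small leucine-rich proteoglycans bind collagen fibrils and set their spacing. The basement membrane is a separate, thin sheet of laminin, nidogen, type IV collagen and perlecan, and in fat it surrounds each adipocyte and the blood vessels.

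Values are FPKM (fragments per kilobase of gene, scaled to the library), a length-corrected scale on which levels of different genes can be compared. The FPKM of the libraries were scaled to totals between 31186018 and 43415696 reads, as worked back from the values. Of each total 99.57% to 99.65% lay in the genes of the deposited table, so it may not be all reads sequenced. At least 50 reads in every library were found for 48 of the 51 genes. A minimum level was set for testing, and 12812 genes had at least 1 FPKM in at least 3 libraries. They were tested with limma on log2(FPKM + 1), with Benjamini-Hochberg adjustment over all of them, and the 51 matrix genes all passed this filter. A gene under 1 FPKM in every control passes only if it is higher in creeping fat, so it could not have been found lower. This holds for Cthrc1, Fbn2 and Lama1, and for Ccn4 and Epyc of the further genes named below. A gene is said to rise or fall where the adjusted p was under 0.05. Differences are creeping fat minus control on the log2(FPKM + 1) scale, with limma's standard error. The added 1 FPKM makes the change of a low gene look smaller.

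The tissue differed in its cell markers. All 7 adipocyte markers fell, from a summed 0.99% to 2.57% of a control library's FPKM to 0.192% to 0.403% in creeping fat. The summed share of 7 seminal vesicle markers was 4.5%, 8.06% and 8.16% in creeping fat 1, 2 and 3 and at most 0.0146% in controls. That of 8 pancreatic acinar markers was 0.00559%, 1.08% and 0.00319% in creeping fat 1, 2 and 3 and 3.13% to 8.25% in controls. Both lists rose or fell with the group (7 of 7 higher, 6 of 8 lower). Fibroblast and progenitor markers rose in 4 of 8 genes (0.278% to 0.354% against 0.105% to 0.195%) and macrophage markers in 5 of 6 (0.222% to 0.286% against 0.0519% to 0.146%). The share of smooth muscle markers (0 of 5 tested called) overlapped between groups, as did those of the mesothelium (1 of 6 rose), B and T cells (0 of 8 called) and gut epithelium (0 of 5 called), and blood endothelial markers fell in 2 of 5 genes (0.0433% to 0.0594% against 0.0618% to 0.0777%). No marker was at 0 in all libraries of a group. The part of these differences in the matrix results was not tested.

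Most genes of the interstitial matrix rose in creeping fat, and most basement membrane genes did not pass. Of the 51 genes 31 rose, none fell and 20 did not pass. The 31 include Cthrc1, Fbn2 and Lama1, which passed the filter only through creeping fat. Over all genes tested 9.35% rose and 6.81% fell, 16.2% together. None of the 51 was lower at an unadjusted p under 0.05 either, and limma's voom on reads recovered from the FPKM also called 31 higher and 0 lower. The median difference of the 51 genes was 1.70, against 0.017 over all genes tested. In 34 of them every creeping fat library stood above every control library, which held for 20.2% of all genes tested, and 0 stood wholly below. By role, 10 of 13 secreted glycoproteins, 10 of 12 elastic fibre genes, 6 of 9 proteoglycans, 4 of 5 other genes and 1 of 12 basement membrane genes rose, with median differences of 1.99, 1.91, 1.95, 1.41 and 0.17. Without creeping fat 1 the secreted glycoproteins that rose were 5 and the other genes 2, the latter also without creeping fat 3, and without control 2 the basement membrane genes that rose were 2. The count over all genes moved more: 576 rose without creeping fat 1 and 2896 without control 2, against 1198 with all libraries. In bulk tissue, more cells of a type and more RNA per cell cannot be told apart.

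**Figure D1:**
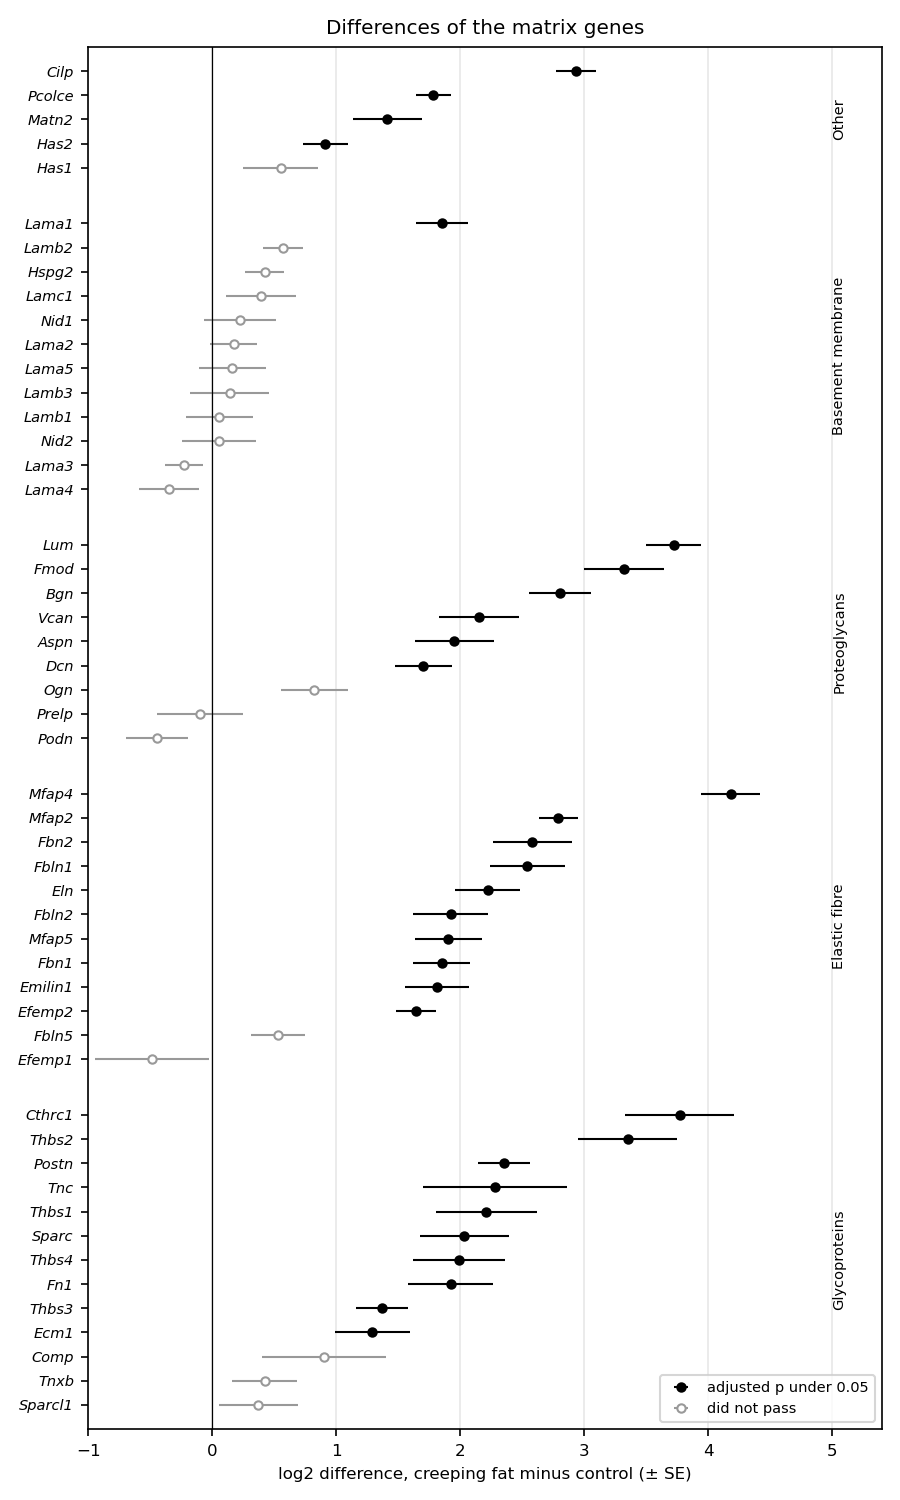
Log2 differences of the 51 matrix genes (x axis, creeping fat minus control on the log2(FPKM + 1) scale, bars are limma's standard errors), ordered by role and size; filled points passed at an adjusted p under 0.05. The filled points number 31, all to the right of 0, and Lama1 is the only filled point among the 12 basement membrane genes.

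Summed over the 51 genes, matrix transcripts took 3.28%, 2.67% and 2.2% of all FPKM in the creeping fat libraries and 0.811%, 0.589% and 0.94% in the controls, a ratio of means of 3.48. The ratio was 3.75 for the secreted glycoproteins, 4.1 for the elastic fibre genes, 4.29 for the proteoglycans and 1.18 for the basement membrane genes. The basement membrane genes held 0.178%, 0.169% and 0.161% in creeping fat and 0.148%, 0.107% and 0.174% in controls, so the groups overlapped there and in no other role. A few genes carried the sum: Sparc, Bgn and Dcn were the 3 most abundant of the 51 in every library and together made up 53.6% to 55.3% of the matrix transcripts in creeping fat and 42.1% to 45.6% in controls. Next in order came Fn1 and Lum in each creeping fat library, and Nid1, Fn1, Hspg2 or Prelp in the controls. No p is given for these sums, because 3 libraries against 3 allow no exact two-sided p under 0.1. The genes were also chosen with results of these libraries known.

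**Figure D2:**
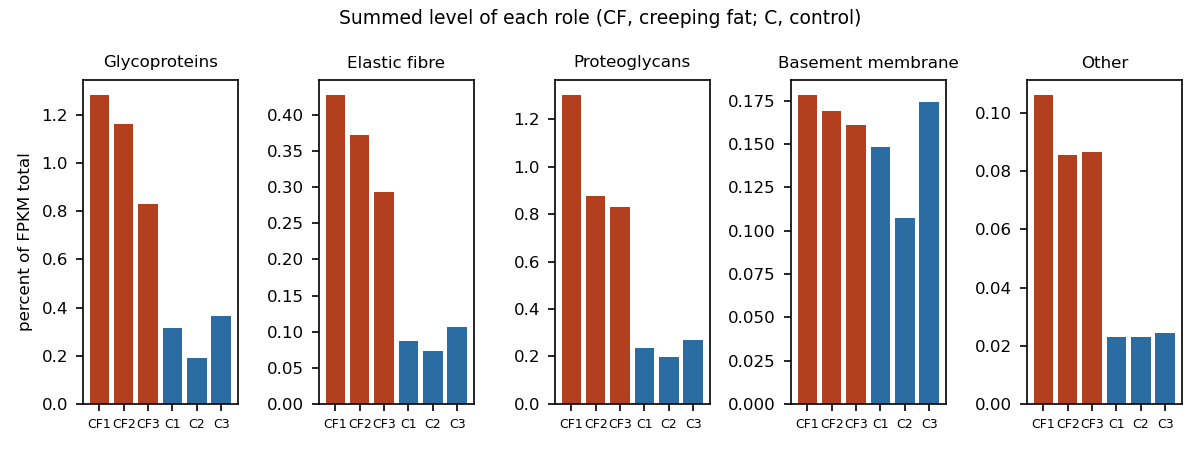
Share of each library's FPKM total (y axis, percent, scale differs between panels) held by each role, 1 bar per library, creeping fat in red and control in blue. In 4 panels all creeping fat bars stand above all control bars, while in the basement membrane panel control 3 at 0.174% lies among the creeping fat libraries.

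The secreted glycoproteins included the most abundant gene of the set. Sparc, which encodes a collagen-binding glycoprotein, stood at 2598, 2693 and 1851 FPKM in creeping fat libraries 1, 2 and 3 and at 708, 345 and 784 FPKM in controls 1, 2 and 3, the order used from here on. It ranked 12 among all genes by mean FPKM in creeping fat and 58 in controls, and it rose by 2.03 ± 0.36 (SE; adjusted p = 0.0122). Its close relative Sparcl1 stood at 63.1, 67 and 68.9 FPKM in creeping fat and at 84.1, 32.3 and 49.2 FPKM in controls, so its groups overlapped (0.37 ± 0.32, adjusted p = 0.512). Fn1, fibronectin, which links matrix fibres to cell-surface integrins, stood at 489.7, 550.2 and 336 FPKM against 135, 73.6 and 166 FPKM (1.92 ± 0.34, adjusted p = 0.0126). Without creeping fat 1, Sparc (1.95, adjusted p = 0.0608) and Fn1 (1.85, adjusted p = 0.0591) did not pass, nor did Sparc with no filter on low values (adjusted p = 0.0521).

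The largest rise of a secreted glycoprotein was that of Cthrc1, which encodes a collagen triple helix repeat protein found in wound fibroblasts. Cthrc1 was nearly absent from control fat, with 23, 0 and 14 reads in control 1 to 3 (0.508, 0 and 0.277 FPKM; 0 reads allow up to 0.0825 FPKM, a limit for counting error only), and stood at 14.1, 32.3 and 8.65 FPKM in creeping fat. Cthrc1 rose by 3.77 ± 0.44 (adjusted p = 0.00359), or by 5.81 with a pseudocount of 0.1 and 6.84 in voom, and creeping fat 2 was the highest library. Postn, periostin, a matricellular protein of fibroblasts, stood at 241, 162 and 149 FPKM against 32.4, 35.3 and 35.7 FPKM and rose by 2.35 ± 0.21 (adjusted p = 0.00145). The control values of Postn lay close together, and the lowest creeping fat value was well above them.

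Among the thrombospondins, matricellular proteins that bind growth factors and cell receptors, Thbs2 rose most. It stood at 166, 72.5 and 54.3 FPKM in creeping fat and 6.96, 6.74 and 9.41 FPKM in controls (3.35 ± 0.40, adjusted p = 0.0037). Thbs1 stood at 331, 173 and 148 FPKM against 33.3, 33.3 and 72.3 FPKM (2.21 ± 0.41, adjusted p = 0.0141). For both genes creeping fat 1 was the highest library and the groups did not overlap, and without control 1 Thbs1 did not pass (2.03, adjusted p = 0.0504). Thbs3 rose by 1.37 ± 0.21 (adjusted p = 0.00756) and Thbs4 by 1.99 ± 0.37 (adjusted p = 0.0142), the latter from 1.43 ± 0.998 to 8.55 ± 3.59 FPKM (SD, n = 3). Thbs4 did not pass without creeping fat 1 (1.70, adjusted p = 0.0535) or without control 3 (1.72, adjusted p = 0.0542). Comp, the fifth thrombospondin, known from cartilage and tendon, stood at 6.71 FPKM in creeping fat 1 but at 1.02 and 1.34 FPKM in creeping fat 2 and 3, against 0.544 to 1.11 FPKM in controls, and did not pass (0.90 ± 0.50, adjusted p = 0.281).

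Of the tenascins, Tnc rose and Tnxb did not pass, and their ratio, given below with the other pairs, overlapped between groups. Tnc, tenascin C, a glycoprotein of injured and developing tissue, stood at 56.1, 135 and 50.8 FPKM in creeping fat and at 9.54, 33.3 and 8.73 FPKM in controls, so the groups did not overlap but control 2 stood well above the other controls. Tnc rose by 2.28 ± 0.58 (adjusted p = 0.0392), but did not pass when any 1 library other than control 2 was left out: the adjusted p was 0.0952, 0.107 and 0.0788 without creeping fat 1, 2 and 3 (2.47, 1.84 and 2.54), and 0.118 and 0.139 without control 1 and 3 (2.02 and 1.96). With no filter on low values it was 0.073. Tnxb, tenascin X, which binds collagen fibrils in loose connective tissue, stood at 62.5, 86.6 and 113 FPKM against 69.9, 48.7 and 73.6 FPKM, with overlapping groups (0.42 ± 0.26, adjusted p = 0.341). Ecm1, a secreted glycoprotein that binds perlecan, stood at 113 to 120.3 FPKM in creeping fat and 28.7 to 63.4 FPKM in controls (1.29 ± 0.30, adjusted p = 0.0292). The call of Ecm1 was lost without creeping fat 1, 2 or 3 (1.27, 1.28 and 1.32, adjusted p = 0.106, 0.09 and 0.0918), without control 3 (1.43, adjusted p = 0.0654), with median ratio scaling (1.24, adjusted p = 0.0836) and with no filter on low values (adjusted p = 0.0524).

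**Figure D3:**
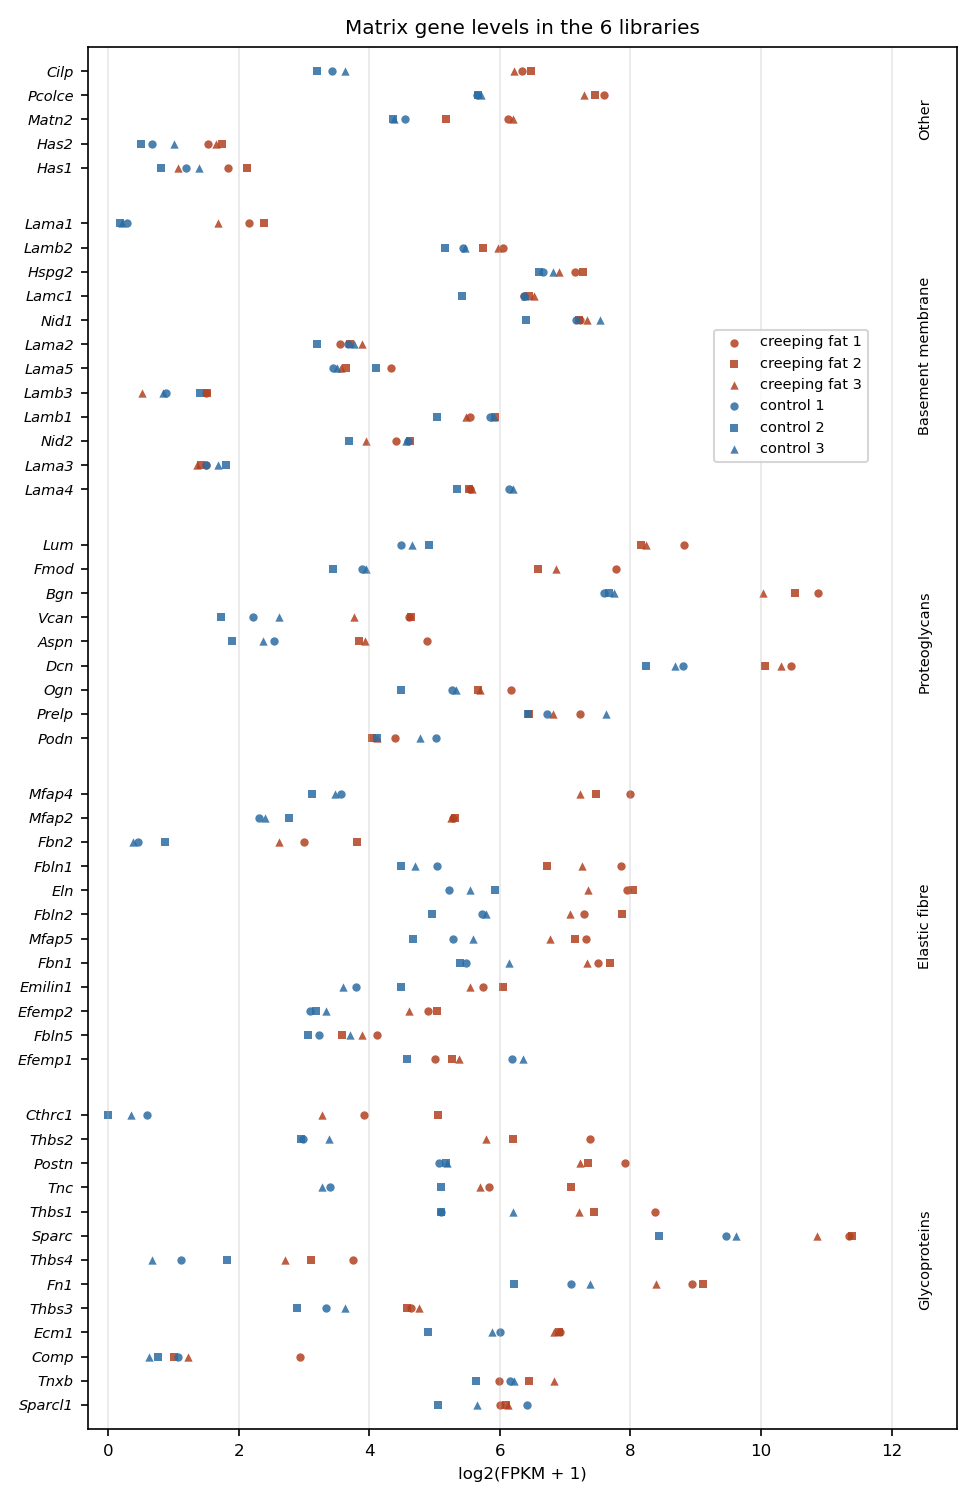
Level of each matrix gene (x axis, log2(FPKM + 1)) in each of the 6 libraries, genes ordered by role and by difference; red points are creeping fat, blue points control, and the marker shape gives the library number. Red and blue points are apart in 34 of the 51 genes, and the points of most laminins and nidogens lie together.

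Genes of elastic fibres and their microfibrils rose in 10 of 12 cases. Mfap4, which encodes a microfibril-associated glycoprotein that binds elastin, had the largest difference of the 51 genes on the log2(FPKM + 1) scale, though not in the ratio of means, which was 20.2 for Mfap4 and 70.2 for Cthrc1. Mfap4 stood at 255, 176 and 149 FPKM in creeping fat and 10.8, 7.68 and 10.1 FPKM in controls (4.18 ± 0.24, adjusted p = 0.000304). Mfap2, a component of fibrillin microfibrils, stood at 37.9, 38.8 and 37.2 FPKM against 3.95, 5.79 and 4.31 FPKM (2.79 ± 0.16, adjusted p = 0.000304). The creeping fat values of Mfap2 lay close together and far above every control. Mfap5, its relative, rose by 1.90 ± 0.27 (adjusted p = 0.00627).

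The elastin and fibrillin genes rose as well. Eln, elastin, the core of the elastic fibre, stood at 247, 261 and 162 FPKM in creeping fat and 36.2, 59.6 and 45.6 FPKM in controls (2.22 ± 0.26, adjusted p = 0.0036). Fbn1, fibrillin 1, which forms the microfibrils of adult tissue, stood at 179.9, 206 and 161 FPKM against 43.5, 40.9 and 69.2 FPKM (1.85 ± 0.23, adjusted p = 0.00433). Fbn2, fibrillin 2, known mainly from embryonic microfibrils, stood at 6.97, 13.1 and 5.15 FPKM in creeping fat and 0.37, 0.823 and 0.305 FPKM in controls (2.58 ± 0.32, adjusted p = 0.00418, and 4.16 in voom). Creeping fat 2 was the highest library for all 3 genes, and none overlapped between groups. Fbn1 was far more abundant than Fbn2 in both groups.

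Of the fibulins, glycoproteins that link elastin, fibrillin and basement membranes, 3 rose and 2 did not pass. Fbln1 (2.54 ± 0.30) and Fbln2 (1.92 ± 0.30) rose (adjusted p = 0.0037 and 0.00843), with creeping fat means of 162 ± 63.6 and 174 ± 51.7 FPKM (SD, n = 3). Efemp2, fibulin 4, which is needed for elastin crosslinking, stood at 28.9, 31.8 and 23.3 FPKM in creeping fat and 7.49, 8.11 and 9.11 FPKM in controls (1.64 ± 0.16, adjusted p = 0.00216). Efemp1, fibulin 3, was lower on average without passing. It stood at 31, 37.7 and 40.5 FPKM in creeping fat and at 71.9, 22.8 and 80.5 FPKM in controls (-0.49 ± 0.46, adjusted p = 0.539). Control 2 was the lowest of all 6 libraries for Efemp1 and the other controls were the highest, and without control 2 the gene passed as lower (-1.05, adjusted p = 0.0028). Fbln5 differed by 0.53 ± 0.22 (adjusted p = 0.162), and Emilin1, an elastic fibre interface protein, rose by 1.81 ± 0.26 (adjusted p = 0.0064).

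Differences of the small leucine-rich proteoglycans ranged from -0.45 (Podn) to 3.72 (Lum), with Ogn (0.82) and Dcn (1.70) between, and some rose while others did not pass. Lum, lumican, which binds collagen fibrils and carries keratan sulphate, stood at 451, 284 and 300.0 FPKM in creeping fat and at 21.5, 29.1 and 24.2 FPKM in controls (3.72 ± 0.22, adjusted p = 0.000421). Fmod, fibromodulin, its close relative, stood at 218, 95.2 and 115 FPKM against 13.8, 9.88 and 14.4 FPKM (3.32 ± 0.32, adjusted p = 0.00197). Bgn, biglycan, stood at 1878, 1465 and 1041 FPKM against 192, 203 and 215 FPKM (2.80 ± 0.25, adjusted p = 0.00145). Creeping fat 1 was the highest library for Lum, Fmod and Bgn, and in each gene the lowest creeping fat value was above the highest control by several times the range of the controls. Dcn, decorin, which like biglycan binds TGF-beta, was already abundant in control fat, with 445, 300.3 and 411 FPKM, and stood at 1413, 1068 and 1259.6 FPKM in creeping fat (1.70 ± 0.23, adjusted p = 0.0051). By mean FPKM Bgn ranked 18 in creeping fat and 201 in controls, and Dcn ranked 23 and 117.

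Aspn, asporin, rose by 1.95 ± 0.32 (adjusted p = 0.00945), from 3.9 ± 1.08 to 18.7 ± 8.52 FPKM (SD, n = 3). Vcan, versican, a large chondroitin sulphate proteoglycan that binds hyaluronan, rose by 2.15 ± 0.32 (adjusted p = 0.00706). Ogn, osteoglycin, stood at 71.1, 49.8 and 51 FPKM in creeping fat and 37.5, 21.3 and 39.2 FPKM in controls; its groups did not overlap, but it did not pass (0.82 ± 0.27, adjusted p = 0.0882). Prelp, which anchors basement membranes to connective tissue, stood at 149.6, 86 and 112 FPKM against 105, 85.3 and 197 FPKM (-0.10 ± 0.35, adjusted p = 0.895), and Podn, podocan, at 20.1, 15.4 and 16.3 FPKM against 31.5, 16.3 and 26.3 FPKM (-0.45 ± 0.25, adjusted p = 0.287). The groups of Prelp and Podn overlapped. Without control 2 Podn passed as lower (-0.71, adjusted p = 0.0131).

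Of these 9 genes, 6 lie in 3 small clusters in the mouse genome, and in 2 of the clusters a gene that rose lies near one that did not pass. On chromosome 1 Prelp (133910304 to 133930102) and Fmod (134037254 to 134048280) lie near each other in GRCm38.p6 (mm10), and Fmod rose while Prelp did not pass. Optc, beside Prelp, was at 0.348 to 1.5 FPKM in creeping fat and 0.436 to 1.24 FPKM in controls and was not tested. On chromosome 13 Aspn (49544443 to 49567565) rose, Ogn (49608015 to 49624501) did not pass, and Ecm2, before Aspn, stood at 4.21 to 7.48 FPKM in creeping fat and 5.22 to 5.89 FPKM in controls (0.11 ± 0.20, adjusted p = 0.787). Omd, between Aspn and Ogn, was under 1 FPKM in every library and was not tested. All 4 lie within the span of Cenpp, and since the use of strand in counting was not given in the sources used here, reads from overlapping genes cannot be told apart. On chromosome 10 Dcn (97479500 to 97518163) and Lum (97565501 to 97572703) both rose. Kera, the next keratan sulphate proteoglycan gene, was at 0.101 to 0.445 FPKM in creeping fat and at most 0.0487 FPKM in controls and was not tested. Epyc, beyond it, which encodes the cartilage proteoglycan epiphycan, stood at 7.96, 1.5 and 6.68 FPKM in creeping fat and had 1, 0 and 2 reads in control 1 to 3. Whether the differences of neighbouring genes differ from each other was not tested.

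The sequences before the start sites of Bgn, Fmod, Aspn, Ogn and Prelp are shown because these genes of 1 protein family differ in whether they rose. Those of Dcn, Lum, Ecm2 and Epyc are not shown. Each is the 250 bases upstream of the RefSeq start in GRCm38.p6, 5′ to 3′ on the gene's strand, and capitals mark matches on either strand to 1 of 4 motifs. Bases shortly after the start were found in a known transcript of the gene for Bgn, Fmod, Aspn and Prelp, but not for Ogn. The motifs, whose matches can overlap, were TATAAA for the TATA box, GGAATG for TEAD factors, CCAAT for the CCAAT box, and TGANTCA for AP-1. The regions are chrX:73483351-73483600 (plus strand) for Bgn, chr1:134037004-134037253 (plus) for Fmod, chr13:49544193-49544442 (plus) for Aspn, chr13:49607765-49608014 (plus) for Ogn and chr1:133921402-133921651 (minus) for Prelp, whose first listed start lies inside the span of the gene.
Bgn: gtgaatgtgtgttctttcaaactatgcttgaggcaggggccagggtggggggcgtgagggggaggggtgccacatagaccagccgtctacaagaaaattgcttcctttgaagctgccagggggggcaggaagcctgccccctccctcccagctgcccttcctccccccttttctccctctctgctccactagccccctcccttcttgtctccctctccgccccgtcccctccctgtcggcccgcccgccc
Fmod: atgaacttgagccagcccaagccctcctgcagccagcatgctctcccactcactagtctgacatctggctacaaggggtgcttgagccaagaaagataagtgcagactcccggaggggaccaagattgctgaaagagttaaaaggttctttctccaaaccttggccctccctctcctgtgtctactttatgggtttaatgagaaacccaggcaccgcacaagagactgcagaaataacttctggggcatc
Aspn: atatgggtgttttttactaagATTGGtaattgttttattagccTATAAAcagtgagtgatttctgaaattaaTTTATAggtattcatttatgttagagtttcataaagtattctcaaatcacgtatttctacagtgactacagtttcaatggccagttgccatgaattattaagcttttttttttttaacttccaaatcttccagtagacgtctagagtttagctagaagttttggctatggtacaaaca
Ogn: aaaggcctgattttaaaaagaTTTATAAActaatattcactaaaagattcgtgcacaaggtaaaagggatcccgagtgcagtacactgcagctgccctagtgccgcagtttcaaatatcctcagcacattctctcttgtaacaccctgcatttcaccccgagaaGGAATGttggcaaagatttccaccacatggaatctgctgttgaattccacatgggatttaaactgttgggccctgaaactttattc
Prelp: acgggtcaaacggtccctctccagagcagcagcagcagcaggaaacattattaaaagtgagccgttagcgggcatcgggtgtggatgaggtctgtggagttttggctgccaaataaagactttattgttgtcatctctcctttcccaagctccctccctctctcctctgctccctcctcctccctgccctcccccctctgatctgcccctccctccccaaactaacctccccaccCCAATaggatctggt
Bgn and Fmod, which rose, held none of the 4 motifs in this window, and Aspn, which rose, held TATAAA at 2 places and CCAAT at 1. Ogn held TATAAA at 2 overlapping places and GGAATG at 1, and Prelp held CCAAT at 1. RefSeq promoters were matched for 33 of the 51 genes, counting the first start listed for each. TATAAA was found in 5 of the 33 (15.2%) and in 13% of all 27025 promoters, the AP-1 motif in 3 (9.09%) and 6.87%, GGAATG in 3 (9.09%) and 12.6%, and CCAAT in 9 (27.3%) and 34.5%. A match is a description of the letters only.

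Of the 12 basement membrane genes 1 rose, near the 9.35% of all genes. The groups did not overlap for 3 of the 12, all higher in creeping fat (Lama1, Lamb2 and Hspg2), near the 20.2% of all genes tested. Nid1, nidogen 1, which joins laminin to type IV collagen, was the most abundant of the 12. It stood at 149, 147 and 159.9 FPKM in creeping fat and 143, 83.1 and 184 FPKM in controls (0.22 ± 0.29, adjusted p = 0.672). Hspg2, perlecan, the large heparan sulphate proteoglycan, stood at 140.4, 154 and 119 FPKM against 99.8, 96.3 and 112 FPKM; its groups did not overlap, but it did not pass (0.42 ± 0.16, adjusted p = 0.131). Control 2 was the lowest control for 9 of the 12 basement membrane genes, and without it Nid1 (-0.10), Nid2 (-0.25) and Lamb1 (-0.22) changed sign, none of them passing.

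The laminins are trimers of an alpha, a beta and a gamma chain, and adipocytes and vessels make mainly the alpha 4 form. Lama4 stood at 45.6, 45.2 and 46.5 FPKM in creeping fat and 69.7, 39.6 and 72.7 FPKM in controls (-0.35 ± 0.24, adjusted p = 0.395), and without control 2 it passed as lower (-0.63, adjusted p = 0.0061). Lama2, the alpha chain of muscle and nerve, stood at 10.7, 12.1 and 13.8 FPKM against 11.7, 8.14 and 12.6 FPKM (0.17 ± 0.19, adjusted p = 0.617). Control 2 was the lowest library for both chains. Lamb1 stood at 45.7, 59.7 and 43.5 FPKM against 56.4, 31.7 and 58.9 FPKM (0.055 ± 0.27, adjusted p = 0.922). Lamb2 stood at 65.1, 52.7 and 61.7 FPKM against 42.2, 34.6 and 43.2 FPKM; its groups did not overlap, and it missed the threshold (0.57 ± 0.16, adjusted p = 0.0536), which it passed without control 2 (0.47, adjusted p = 0.0343), with quantile normalization (0.57, adjusted p = 0.0434) and with a total that leaves out gland and abundant genes (0.58, adjusted p = 0.0491).

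Lama1, the alpha chain of embryonic and epithelial basement membranes, was the 1 gene of this role that rose, and it passed the filter only through creeping fat. It was at 3.45, 4.23 and 2.22 FPKM in the creeping fat libraries (730 to 1482 reads) and at 0.221, 0.141 and 0.154 FPKM in controls (44 to 86 reads), a difference of 1.85 ± 0.21 (adjusted p = 0.00333). The Lama1 difference was 3.61 with a pseudocount of 0.1 and 4.23 in voom, and the ratio of means was 19.2. Seminal vesicle markers rose and pancreatic acinar markers fell, as given above, and the part of either gland in the Lama1 difference was not tested. Lama3 and Lamb3, chains of epithelial laminin, were low in every library (0.44 to 2.51 FPKM) and did not pass, with differences of -0.23 and 0.14. The groups also overlapped for Lamc1, the common gamma chain (0.39 ± 0.28, adjusted p = 0.401), Lama5 (0.16 ± 0.27, adjusted p = 0.758) and Nid2 (0.052 ± 0.30, adjusted p = 0.934).

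Among the other matrix genes, Cilp, cartilage intermediate layer protein, stood at 80.3, 88.4 and 73.4 FPKM in creeping fat and 9.79, 8.21 and 11.4 FPKM in controls (2.93 ± 0.16, adjusted p = 0.000304). Pcolce, which enhances the cleavage of procollagen, stood at 193, 174 and 156 FPKM against 49, 49.6 and 51.2 FPKM (1.78 ± 0.14, adjusted p = 0.00114). Cilp and Pcolce had among the smallest standard errors of the set, and each library of a group lay close to the others. Matn2, matrilin 2, an adaptor of matrix filaments, stood at 68.9, 35.3 and 72.6 FPKM against 22.5, 19.5 and 19.7 FPKM (1.41 ± 0.28, adjusted p = 0.0179) and did not pass without creeping fat 1 (1.26, adjusted p = 0.0777), creeping fat 3 (1.23, adjusted p = 0.0686) or control 3 (1.38, adjusted p = 0.0763).

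The hyaluronan synthases were expressed at low levels. Has2 stood at 1.9, 2.35 and 2.15 FPKM in creeping fat and 0.588, 0.423 and 1.01 FPKM in controls (0.91 ± 0.18, adjusted p = 0.018), and Has1 at 2.56, 3.38 and 1.11 FPKM against 1.28, 0.751 and 1.62 FPKM (0.55 ± 0.30, adjusted p = 0.282). The groups of Has2 did not overlap and those of Has1 did. The Has2 difference was 1.59 with a pseudocount of 0.1 and 1.69 in voom. Has2 did not pass without creeping fat 1, 2 or 3 (0.97, 0.86 and 0.91, adjusted p = 0.0628, 0.0742 and 0.0741) or without control 1 (0.88, adjusted p = 0.0562).

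Ratios of related genes, as FPKM + 1 within each library, were compared for 10 pairs. The log2 ratio of Bgn to Dcn was 0.41, 0.46 and -0.28 in the creeping fat libraries and -1.20, -0.56 and -0.93 in the controls, higher by 1.10 ± 0.30 (SE). Sparc to Sparcl1 was higher by 1.66 ± 0.33 and Efemp2 to Efemp1 by 2.13 ± 0.59. Thbs1 to Thbs2 was lower by 1.14, with a log2 ratio of 1.22 ± 0.22 against 2.36 ± 0.40 (SD, n = 3), Mfap2 to Mfap4 by 1.39 (-2.28 ± 0.39 against -0.89 ± 0.48) and Lama4 to Lama2 by 0.52 (1.83 ± 0.16 against 2.36 ± 0.18). In these 6 pairs the groups did not overlap, with or without the added 1 FPKM, and the exact two-sided permutation p was 0.1, the smallest that 3 against 3 allows (Benjamini-Hochberg adjusted p = 0.167 over the 10 pairs). With 1 FPKM added to each gene, the groups overlapped for Fbn2 to Fbn1 (0.73 ± 0.44), Tnc to Tnxb (1.86 ± 0.93), Lamb1 to Lamb2 (-0.51 ± 0.29) and Has1 to Has2 (-0.36 ± 0.32). Their exact permutation p was 0.2 for the first 3 and 0.5 for Has1 to Has2. The added 1 FPKM set the value of the pairs with low genes. On the FPKM as deposited, an alternative chosen after seeing the data, the log2 ratio of Fbn2 to Fbn1 was -4.69, -3.97 and -4.97 in creeping fat and -6.88, -5.63 and -7.83 in controls, higher by 2.24 ± 0.70 with no overlap (exact permutation p = 0.1). That of Has1 to Has2 was then lower by 0.87 (-0.87 ± 0.50), also with no overlap (exact permutation p = 0.1), and 8 of the 10 pairs did not overlap.

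**Figure D4:**
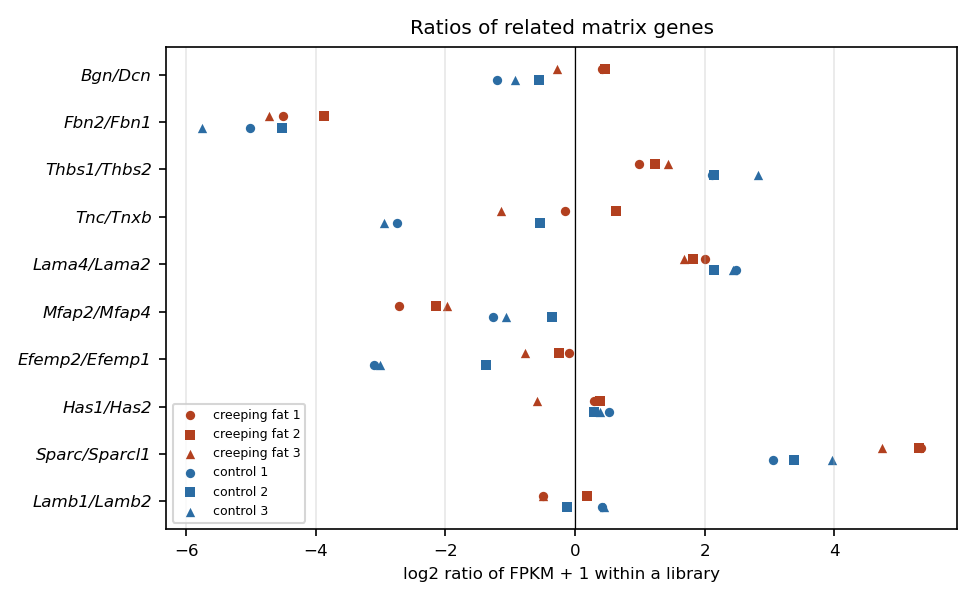
Log2 ratio of FPKM + 1 of 10 pairs of related matrix genes within each library (x axis), creeping fat in red above control in blue, marker shape by library number. In 6 pairs, among them Bgn/Dcn and Sparc/Sparcl1, the red and blue points do not overlap.

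The libraries of a group also differed among themselves. Of the 31 genes that rose, creeping fat 1 was the highest creeping fat library for 14, creeping fat 2 for 15 and creeping fat 3 for 2, and creeping fat 3 was the lowest for 23 (74.2%). Over all genes tested creeping fat 3 was the lowest for 25% and the highest for 40.8%. Cthrc1, Tnc, Fbn2 and Fbln2 were highest in creeping fat 2, and the thrombospondin genes Thbs1, Thbs2 and Thbs4, with Fmod and Lum, in creeping fat 1. Creeping fat 2 also had a far higher pancreatic acinar share (1.08%) than creeping fat 1 (0.00559%) and 3 (0.00319%), and the part of this in its matrix values was not tested. Control 2 was the lowest control for 35 of the 51 genes (68.6%), but for 29.8% of all genes tested, of which it was the highest control in 57.8%. It also had the highest B and T cell share (0.102% against 0.0241% and 0.032% in control 1 and 3) and the lowest adipocyte share of the controls (0.99% against 2.4% and 2.57%). Its fibroblast and progenitor share was the lowest of the controls (0.105% against 0.151% and 0.195%). Its pancreatic acinar (8.25% against 6.54% and 3.13%) and macrophage (0.146% against 0.0519% and 0.086%) shares were the highest. The part of these shares in the low matrix values of control 2 was not tested. Leaving out control 2 gave 32 genes higher and 3 lower (Efemp1, Podn and Lama4).

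Further genes of the same kinds moved in part, to be read against the 9.35% and 6.81% of all genes that rose and fell. Of 62 tested further matrix glycoproteins 25 rose and 3 fell (median 0.58). Spp1, osteopontin, was at 124 to 253 FPKM in creeping fat and 0.528 to 7.41 FPKM in controls (5.68 ± 0.62, adjusted p = 0.00289), and Ccn4, a matricellular Wnt-induced protein, at 14.5 to 30.4 FPKM against 0.647 to 0.723 FPKM (3.81 ± 0.27, adjusted p = 0.00069). Lgi2, a secreted leucine-rich glycoprotein, rose by 2.75 ± 0.18 (adjusted p = 0.000522). Smoc1, a SPARC-related calcium-binding protein, fell by 2.27 (SE 0.35, adjusted p = 0.00827), from 36.3 ± 12.1 to 6.79 ± 2.68 FPKM (SD, n = 3), opposite in sign to Sparc. Its relative Smoc2 went the other way and rose by 2.21 ± 0.21 (adjusted p = 0.0018), as Sparc did. Pcolce2, a relative of Pcolce, was at 4.52 to 8.06 FPKM against 11.2 to 22.8 FPKM and fell by 1.32 (adjusted p = 0.0323), and Creld1 fell by 0.64 (adjusted p = 0.0446). The calls of Pcolce2 and Creld1 were lost when any 1 library other than control 2 was left out (adjusted p from 0.0724 to 0.121 and from 0.113 to 0.154).

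Of 17 tested further proteoglycans 4 rose and 1 fell (median 0.46). Sdc1, syndecan 1, a cell-surface heparan sulphate proteoglycan, was at 50 to 65.3 FPKM against 7.94 to 11 FPKM (2.49 ± 0.17, adjusted p = 0.00069). Epyc rose by 2.46 ± 0.46 (adjusted p = 0.0148), or by 5.31 with a pseudocount of 0.1 and 8.03 in voom, though not without creeping fat 1 (2.12, adjusted p = 0.0566), creeping fat 3 (2.23, adjusted p = 0.0618) or control 3 (2.47, adjusted p = 0.0615). Gpc1, glypican 1, rose by 1.09 ± 0.29 (adjusted p = 0.0499), and Cspg4, the NG2 proteoglycan of pericytes, fell by 1.10 (SE 0.27, adjusted p = 0.0372). Both calls were lost when any 1 library other than control 2 was left out (adjusted p from 0.0823 to 0.175 for Gpc1 and from 0.0738 to 0.132 for Cspg4).

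Of 32 tested enzymes of glycosaminoglycan chains 7 rose and 1 fell (median 0.40). Chpf, a chondroitin polymerizing factor, was at 27.3 to 34.9 FPKM against 10.4 to 13.7 FPKM (1.27 ± 0.16, adjusted p = 0.00438), and Dsel, a dermatan sulphate epimerase, at 6.2 to 8.22 FPKM against 2.04 to 3.34 FPKM (1.23 ± 0.19, adjusted p = 0.00827). The heparan sulphate polymerase gene Ext1 rose by 0.88 ± 0.15 (adjusted p = 0.0105), but not without creeping fat 1 (0.85, adjusted p = 0.0568). Extl3, which starts heparan sulphate chains, fell by 0.94 (SE 0.17, adjusted p = 0.0143), and not without creeping fat 1, 2 or 3 or control 3 (adjusted p from 0.0508 to 0.0659). Of 12 tested genes of hyaluronan turnover 1 rose and 0 fell (median -0.0047), and 2 were lower at an unadjusted p under 0.05, against 13.7% of all genes. Both shares are near those over all genes. The gene that rose was Cd44, the main hyaluronan receptor, at 36.8 to 44.9 FPKM against 13.7 to 29.6 FPKM (1.00 ± 0.27, adjusted p = 0.0479), a call lost when any 1 library other than control 2 was left out (adjusted p from 0.0901 to 0.162). Over these 4 lists, 37 of 123 tested genes rose and 5 fell, against 31 and 0 of 51 above. The 37 include Ccn4 and Epyc, which passed the filter only through creeping fat. These counts rested on single libraries: 20 rose and 1 fell without creeping fat 1, and 58 rose and 13 fell without control 2.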

How the data were processed

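RNA-seq of 6 mouse adipose tissue libraries was used, 3 of creeping fat and 3 of control mesenteric fat, with group and replicate number taken from the sample titles. RNA came from a mirVana extraction and was used where its integrity number reached 7, and libraries were stranded total RNA with ribosomal RNA removed, per the labels' protocols. The authors deposited 1 table of FPKM values with no counts. Per the submitters' processing notes the genome was mm10. Aligner, counting program, annotation and strand setting are not given in the sources used here.

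Genes reaching 1 FPKM in 3 or more libraries were compared on log2(FPKM + 1) in limma 3.58.1 (R 4.3.3; lmFit, eBayes with trend, group as the only term, two-sided, Benjamini-Hochberg over 12812 genes, called under 0.05). Reads were recovered as whole multiples of the value of 1 read, within 0.002 reads, for 18713 of 18714 genes above 0 and were used for depth and for voom only. Their absolute scale was set from short genes, of which 290 of 679 matched their RefSeq length. The fit and the recovery were tested on simulated data. Gene positions are from RefSeq GRCm38.p6. Exact permutation tests used scipy 1.17.1.

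The genes and lists were chosen with earlier results of these data known. Values per library are given for the 3 called genes with the largest differences in each role, the most abundant gene of each role and the related pairs; from further lists, up to 3 called genes per direction with a mean of at least 5 FPKM. Other named genes were chosen after their values were seen. Alternatives changed the pseudocount, filter, variance model, scaling, libraries and pairing. One listed gene of each of 2 further lists was not matched in the table.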

Additional observations from a re-analysis of the deposited data

How the results depend on the processing

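Of the 31 genes that rose, 23 did so under every one of the 17 alternatives that tested them, 2 lost the call under 1 and 6 under 2 or more, and all 31 stayed positive. The number that rose was 24 to 32 with 1 library left out. All genes that rose were 1198 and 576 to 2896 with 1 library left out, or 2713 without creeping fat 2 and control 2 together; those that fell were 872, 287 to 1857 and 1731. Of the 51 genes 0 fell, 0 to 3 with 1 library left out and 3 without both; Ogn then also passed as higher (0.64, adjusted p = 0.037, limma). With 1 library left out, 5 to 10 secreted glycoproteins, 1 to 2 basement membrane genes and 2 to 4 other genes rose. The basement membrane count was 0 at a mean of at least 5 FPKM, and 2 with quantile normalization, with the total without gland and top genes, and without both libraries. Of the 123 further genes 20 to 58 rose and 1 to 13 fell with 1 library left out; 11 fell without both, 2 with median ratio scaling, 3 with no filter and 3 with quantile normalization. The summed FPKM of the 51 genes was also set against the total without gland and top genes, giving 3.36% in creeping fat and 0.98% in controls. These are not shares of that total, because Sparc is in the sum but is 1 of the top genes left out of the total. With a pseudocount of 0.1 the ratio difference was 1.95 for Fbn2 to Fbn1 and -0.77 for Has1 to Has2, and with no pseudocount, added after seeing the data, 2.24 and -0.87.

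Differences near 0 changed sign. With 1 library left out they ranged from -0.34 to 0.25 for Prelp (0.10 without creeping fat 2), -0.10 to 0.47 for Nid1, -0.25 to 0.24 for Nid2 (-0.093 without creeping fat 2), -0.00074 to 0.29 for Lama2, -0.089 to 0.36 for Lama5, -0.22 to 0.21 for Lamb1 (-0.082 without creeping fat 2) and -0.033 to 0.47 for Lamb3 (-0.022 without creeping fat 1). Without both libraries Nid1 was at -0.073, Nid2 at -0.39 and Lamb1 at -0.36. The cause was not tested for any of these changes.

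No sign of pairing by replicate number was seen: deviations of same-numbered libraries from their group means correlated at -0.181, -0.18 and -0.081. With 3 libraries per group, whose deviations also carry differences in tissue make-up, this cannot show that the samples were unpaired. With the replicate number as a block, 636 genes rose and 378 fell, 29 of the 51 and 21 of the further genes rose, and 0 and 1 fell. Ecm1 and Has2 (adjusted p = 0.0592 each, limma) did not pass under the block, nor did Ext1 (0.0611), Extl3 (0.0578), Pcolce2 (0.0736), Creld1 (0.131), Gpc1 (0.118), Cspg4 (0.0747) and Cd44 (0.11).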
